A study of Mus musculus with 2 samples.

Results

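The genes described here are 10 members of the cytotoxic and natural killer (NK) cell programme, read out in RNA from mouse bone marrow haematopoietic stem cells (HSCs). They are Nkg7, Gzma, Gzmb, Gzmm, Prf1, Klrd1, Cd3e, Cd7, Ccl5 and Tbx21, out of 54531 genes in the deposited table. They were chosen by symbol as granule, receptor, chemokine and transcription factor genes of NK and T cells, and Nkg7 was picked because it was higher in 1 of the libraries. All 10 symbols were found in the table, each as a single Ensembl gene.

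NK cells and cytotoxic T cells kill target cells by releasing granules that hold perforin, which forms pores in membranes, and granzymes, serine proteases that enter the target through them. NKG7 is a membrane protein of these granules and takes part in their release. The programme is switched on in mature lymphocytes by T-box transcription factors such as T-bet, the product of Tbx21. Haematopoietic stem cells stand at the top of the blood lineages and are not themselves cytotoxic cells.

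The comparison was between 2 genotypes with 1 library each, called control HSCs and deletion HSCs below. By its title and genotype label, the control library came from Angptl2fl/fl mice, which carry floxed alleles of Angptl2, the gene of a secreted angiopoietin-like protein. The deletion library came from Cdh5-Cre;Angptl2fl/fl mice, in which Cre recombinase is expressed from the promoter of the endothelial cadherin gene Cdh5, and its label describes an endothelial loss of Angptl2. The description and the column name of the control library speak of Cdh5 and Cre and of no floxed allele, so whether its mice carried Cre is not settled. Cdh5 is also active in the haemogenic endothelium of the embryo, from which HSCs arise, so an endothelial loss and a loss in the HSCs cannot be told apart. The sources used here do not give age, number of pooled mice or sort markers. With 1 library per genotype there is no replicate check and no test between genotypes, and "higher" and "lower" describe these libraries alone.

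Values are FPKM, fragments per kilobase of gene model per 1000000 fragments, so levels of different genes can be compared per length. Recovered depths were 17378600 fragments in control HSCs and 16843100 in deletion HSCs. The libraries differed at the low end, where most of the members lie. The commonest fragment number among detected genes was 1 in control HSCs and 6 in deletion HSCs, and genes with 1 to 5 fragments numbered 4943 and 1653. Genes above 0 numbered 21891 in control HSCs and 18217 in deletion HSCs, so a low gene was more often listed at 0 in deletion HSCs. In these files duplicate reads cannot be told apart from separate molecules. Counting intervals are given at 95% for the fragments as recovered and, where it changes the reading, for fragments divided by 6. They cover counting error only. HSC genes were present in both libraries. The 10 HSC markers summed to 156 FPKM in control HSCs and 139 FPKM in deletion HSCs. They ran from Kit at 54.3 and 48.8 FPKM down to Slamf1 at 0.402 and 0.55 FPKM. RNA of maturing blood cells was present too, with 9 late neutrophil markers summing to 2547 and 1449 FPKM. The 8 erythroid markers summed to 1849 and 2108 FPKM.

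Nkg7 was by far the most abundant of the 10 members, and its RNA was 2.68-fold higher in deletion HSCs. Ccl5, a chemokine of T cells, NK cells, macrophages and platelets, was 2.95-fold lower. Cd7 stood near 1.5 FPKM in both libraries. The other 7 members, among them perforin, the 3 granzymes and T-bet, lay between 0.0449 and 0.665 FPKM in control HSCs and between 0 and 1.12 FPKM in deletion HSCs. Nkg7 made up 77.7% of the summed FPKM of the members in control HSCs and 92.6% in deletion HSCs. The other 9 together summed to 8.36 and 6.23 FPKM.

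**Figure D1:**
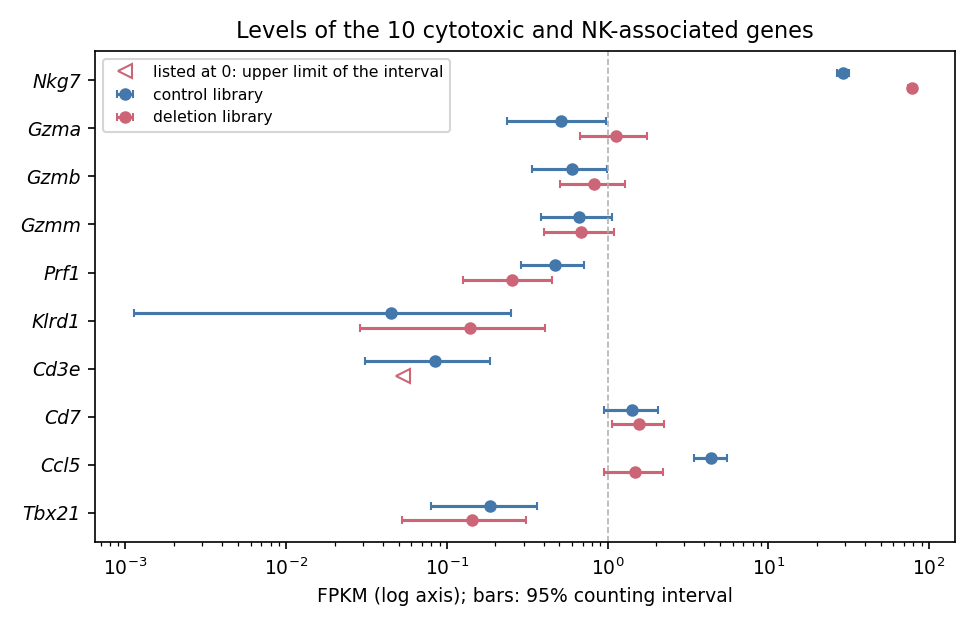
FPKM of each member in control HSCs (blue) and the deletion library (red) on a log axis. Points are the deposited values, bars are exact Poisson 95% counting intervals, the open triangle is the upper limit for a gene listed at 0, and the dashed line marks 1 FPKM. Nkg7 lies far to the right at 29.1 and 78.0 FPKM, Ccl5 is lower in deletion HSCs, and for the other 8 members the bars of the libraries overlap.

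A gene was called higher or lower when log2(FPKM + 1) differed by at least 1, that is 2-fold, and its mean over the libraries reached 1 FPKM. Only 3 of the 10 members (Nkg7, Cd7 and Ccl5) reached that mean. Nkg7 was the 1 member counted as higher, where 2.47% of all 12325 genes and 0.488% of 10237 protein-coding genes were. Ccl5 was the 1 member counted as lower, where 3.38% of all genes and 0.752% of protein-coding genes were. Since Nkg7 was picked for this difference, these counts describe the choice of genes. Nearest to the threshold inside it was Ccl5, with a log2 ratio of -1.11, and nearest outside it was Gzma, with 0.49 at a mean of 0.818 FPKM, under the minimum. The median log2 ratio of the 3 members past the minimum was 0.087, beside -0.011 for all genes.

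Granule proteins come first. Nkg7 (ENSMUSG00000004612; GRCm38 chromosome 7, 43437073 to 43438249, plus strand; protein-coding) has an exon length of 914 bases and overlaps no other annotated gene. It stood at 29.1 FPKM in control HSCs (counting interval 26.6 to 31.9) and at 78.0 FPKM in deletion HSCs (73.7 to 82.6), from 463 and 1201 fragments. The deletion library was the higher one and the intervals were far apart. Without a pseudocount the log2 ratio was 1.42 (1.26 to 1.58). With fragments divided by 6 its interval was 1.03 to 1.82, which still lay above equality. Among protein-coding genes ordered by FPKM, Nkg7 held place 1841 in control HSCs and place 554 in deletion HSCs, of 21995.

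The promoters of Nkg7, Gzmb and Prf1 are shown because these genes share a granule pathway and yet differed widely in level, with Nkg7 the abundant one. Sequences are from RefSeq on GRCm38.p6, which held promoters for 7 of the 10 members and not for Klrd1, Cd7 and Ccl5. Each runs 5′ to 3′ on the gene's strand from 250 bases before the RefSeq start, and stops where GENCODE places the start of the gene if that is earlier. Capitals mark TGTGGT or its reverse complement, the core letters bound by RUNX factors. The 185 bases of Nkg7 (chr7:43436888-43437072, plus strand), the 247 of Prf1 (chr10:61297586-61297832, plus strand) and the 250 of Gzmb (chr14:56262335-56262584, minus strand) read as follows.
Nkg7: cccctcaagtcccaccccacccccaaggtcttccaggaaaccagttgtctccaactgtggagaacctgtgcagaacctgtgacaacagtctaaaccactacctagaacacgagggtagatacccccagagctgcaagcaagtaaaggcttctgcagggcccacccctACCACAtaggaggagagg
Prf1: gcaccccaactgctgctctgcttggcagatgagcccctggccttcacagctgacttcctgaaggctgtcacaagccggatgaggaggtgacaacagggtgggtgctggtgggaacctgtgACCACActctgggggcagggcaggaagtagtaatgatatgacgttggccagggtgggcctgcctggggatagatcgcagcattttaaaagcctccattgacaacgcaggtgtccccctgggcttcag
Gzmb: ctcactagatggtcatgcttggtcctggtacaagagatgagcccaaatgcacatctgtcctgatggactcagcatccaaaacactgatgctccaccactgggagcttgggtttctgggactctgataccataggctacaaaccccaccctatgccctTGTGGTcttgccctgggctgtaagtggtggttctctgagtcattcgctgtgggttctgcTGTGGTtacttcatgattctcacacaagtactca

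Motifs were searched on both strands in the 250 bases before the RefSeq start. The RUNX core TGTGGT was found for 5 of the 7 members (Nkg7, Gzma, Gzmb, Gzmm and Prf1), and in 14% of all 32851 promoters in the table. Gzmb held it at 2 positions, starting 93 and 34 bases before the start, and Nkg7 at 1, from 83 to 78 bases before it. The T-box half-site AGGTGTGA was found in 1.12% of all promoters and, among the members, for Nkg7 alone, from 14 to 7 bases before the RefSeq start and so inside the gene as GENCODE draws it. The letters GAGGAA, bound by PU.1 and other ETS factors, were found for Cd3e and Gzmm and in 23.3% of promoters. TTGCNNAA, a C/EBP pattern, was in 9.56% of promoters and in none of the 7. These are matches of letters in a window and were not tested as sites. Of the genes of RUNX factors, Runx3 was at 18.2 and 19.0 FPKM and Runx1 was at 7.66 and 7.91 FPKM in the control and deletion libraries. Eomes, a T-box gene like Tbx21, was at 0.138 and 0.157 FPKM.

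The 3 granzyme genes among the members were all low. Gzma (chromosome 13, 113093825 to 113100981, minus strand), which encodes a trypsin-like granzyme, was at 0.515 FPKM in control HSCs and 1.12 FPKM in deletion HSCs, from 9 and 19 fragments. Its ratio was 2.18, but the counting interval of the log2 ratio, -0.091 to 2.45, included equality. Gzmb (chromosome 14, 56258838 to 56262260, minus strand), the granzyme that cleaves caspases, was at 0.601 and 0.827 FPKM from 15 and 20 fragments, with an interval of -0.58 to 1.53. Gzmm (chromosome 10, 79689020 to 79695261, plus strand), an NK cell granzyme, was at 0.665 and 0.686 FPKM from 17 fragments in each library, with an interval of -1.01 to 1.10. No difference between the libraries was detectable at this depth for any of the 3. The control intervals of the 3 genes overlapped one another, as did the deletion intervals, so their order within a library was not resolved.

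The granzyme family has close copies next to Gzmb, between which fragments can be split. Of the 7 further granzyme genes read out, Gzmd, Gzme, Gzmf, Gzmg, Gzmk and Gzmn were listed at 0 in both libraries. Gzmc was at 0.257 FPKM in control HSCs and 0.199 FPKM in deletion HSCs, from 4 and 3 fragments.

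Prf1 (chromosome 10, 61297833 to 61304680, plus strand), the gene of perforin, was at 0.468 FPKM in control HSCs and 0.253 FPKM in deletion HSCs. It had 21 and 11 fragments, and the interval of its log2 ratio ran from -2.09 to 0.23. Prf1 therefore stood on the other side of equality from Nkg7, with a difference that was not detectable at this depth. The ratio of Nkg7 to Prf1 was 62.3 in control HSCs and 309 in deletion HSCs.

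**Figure D2:**
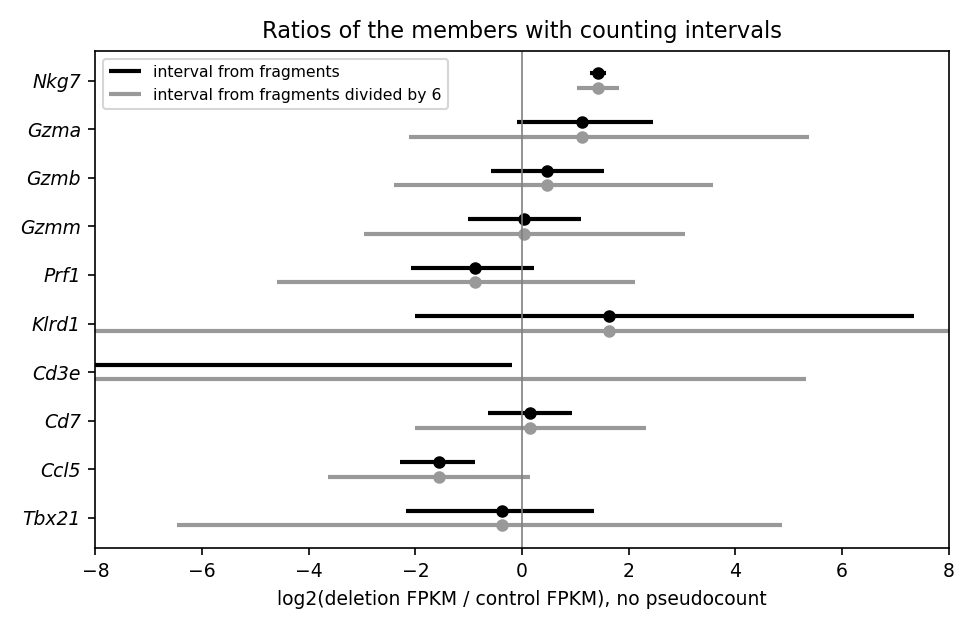
Log2 ratio of deletion over control FPKM without a pseudocount for each member (points) with exact Clopper-Pearson 95% counting intervals from the recovered fragments (black) and from fragments divided by 6 (grey). Intervals are drawn to the axis limits where they run past them, and Cd3e has no point because it is listed at 0 in deletion HSCs. Only the Nkg7 intervals lie wholly on 1 side of 0 in both versions.

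Receptor genes were low as well. Klrd1 (chromosome 6, 129591782 to 129598775, plus strand) encodes CD94, the lectin-like partner of NKG2 receptors. It was at 0.0449 FPKM in control HSCs from 1 fragment and at 0.139 FPKM in deletion HSCs from 3 fragments, a ratio of 3.10 with a log2 interval of -2.01 to 7.34. Cd3e (chromosome 9, 44998740 to 45009627, minus strand) encodes a signalling chain of the T cell receptor complex. It was at 0.0846 FPKM in control HSCs from 6 fragments and listed at 0 in deletion HSCs. There 3 fragments would be 0.0437 FPKM, and the control level was 1.94 times that floor, which is no bound on the difference. The interval of Cd3e lay below equality with the fragments as recovered, its upper end at -0.19, and reached 5.33 with fragments divided by 6. Cd3e overlaps the antisense gene Gm48719 and the gene Gm48720, both listed at 0.

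Cd7 (chromosome 11, 121036747 to 121039418, minus strand) encodes an immunoglobulin-family surface protein of T cells, NK cells and their progenitors. It was at 1.42 FPKM in control HSCs and 1.57 FPKM in deletion HSCs, from 28 and 30 fragments. The interval of its log2 ratio, -0.65 to 0.94, spanned equality. Cd7 overlaps the antisense gene Gm11775, listed at 0 in both libraries.

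Ccl5 (chromosome 11, 83525778 to 83530518, minus strand) was the second most abundant member in control HSCs, at 4.38 FPKM (3.43 to 5.50) from 73 fragments. In deletion HSCs it was at 1.48 FPKM (0.951 to 2.21) from 24 fragments, level with Cd7. The log2 ratio was -1.56 without a pseudocount (-2.29 to -0.88). With fragments divided by 6 the interval was -3.65 to 0.16 and included equality. With a pseudocount of 5 FPKM the log2 ratio was -0.53, no longer past 2-fold. Monocyte and macrophage markers, which belong to 1 of the cell types that make Ccl5, were lower in deletion HSCs too, apart from Vcam1. Vcam1 was at 3.69 FPKM in control HSCs and 5.78 FPKM in deletion HSCs. The 8 genes of this list summed to 41.2 FPKM in control HSCs and 23.1 FPKM in deletion HSCs, and their part in the Ccl5 difference was not tested. The 7 megakaryocyte markers differed the other way, at 76.4 and 168 FPKM. T cell markers went both ways: their sum was 6.39 and 7.04 FPKM, with 6 of the 9 lower in deletion HSCs and Trbc2, at 1.66 and 3.78 FPKM, the main gain. In a bulk library fewer cells of a type and less RNA per cell cannot be told apart.

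Tbx21 (chromosome 11, 97098071 to 97115331, minus strand), the gene of T-bet, was at 0.185 FPKM in control HSCs and 0.143 FPKM in deletion HSCs. It had 8 and 6 fragments and an interval of -2.18 to 1.35, so no difference was detectable.

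By counting intervals the levels formed few steps. In control HSCs Nkg7 stood apart from Ccl5 and Ccl5 from Cd7, and every pair of neighbours below that overlapped. In deletion HSCs Nkg7 stood apart from Cd7, and no later pair of neighbours was separate. The interval of the log2 ratio excluded equality for 3 of the 10 members (Nkg7, Ccl5 and Cd3e), and for Nkg7 alone with fragments divided by 6. Of 9669 protein-coding genes with fragment numbers whose mean reached 1 FPKM, the interval lay above equality in 27.4% and below it in 31.5%, or in 9.01% and 11.1% with fragments divided by 6.

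**Figure D3:**
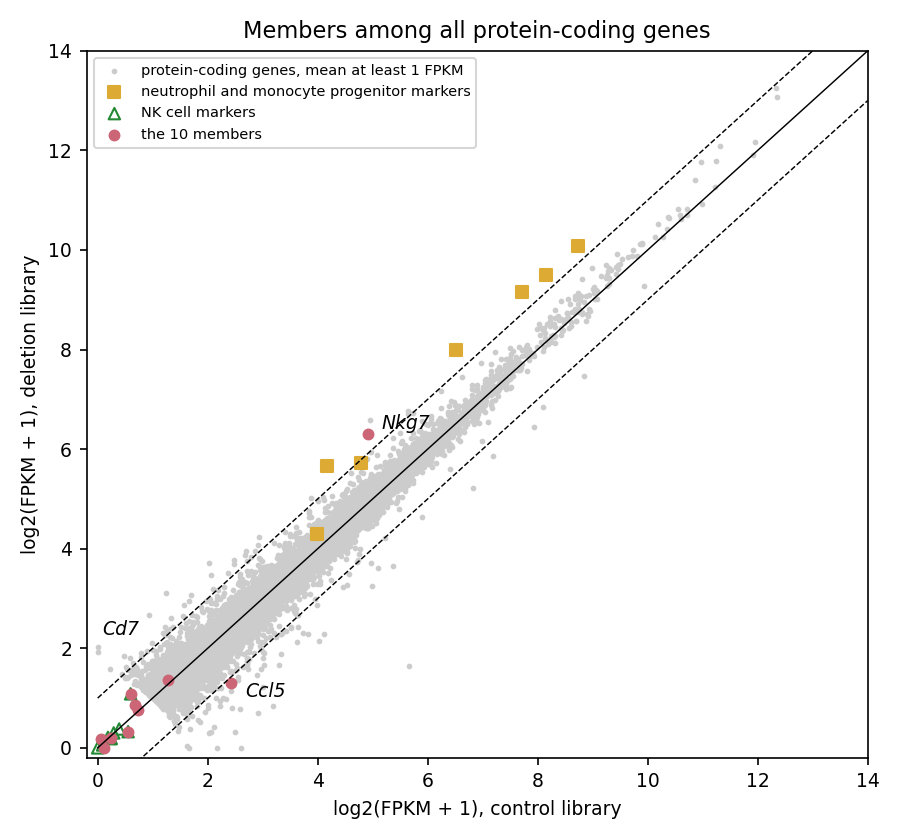
Log2(FPKM + 1) in control HSCs (x axis) and the deletion library (y axis) for protein-coding genes whose mean reached 1 FPKM (grey), the 10 members (red), NK cell markers (green triangles) and neutrophil and monocyte progenitor markers (yellow squares). The solid line is equality and the dashed lines are 2-fold on this scale. Nkg7 lies above the upper dashed line, like 5 of the 7 progenitor markers, and Ccl5 lies just below the lower one, while the other members and the NK markers crowd the origin.

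Nkg7 was set beside genes of its own level. Of 1668 protein-coding genes with a mean FPKM within 2-fold of the 53.6 FPKM of Nkg7, 5 were counted as higher in deletion HSCs, Nkg7 among them, and 4 as lower. The other 4 higher genes, named after their values were seen, were Pf4, Ms4a3, Plac8 and mt-Atp6. Pf4 (a platelet chemokine) and Ms4a3 (a gene of granulocyte and monocyte progenitors) had log2 ratios of 1.63 and 1.5, above the 1.39 of Nkg7. The genes nearest to Nkg7 in its pair of levels on the log2(FPKM + 1) scale were Pf4, Ly6c2, Gstm1, Ndufs5, Uqcrb and Cmtm7. Ly6c2, a monocyte and progenitor surface antigen, was at 30.4 and 60.8 FPKM. With 2 libraries this is a closeness of 2 values each and not a pattern across samples.

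Markers of cell types were read out beside Nkg7. The 9 NK cell markers, of which Gzma, Prf1 and Tbx21 are also members, summed to 2.09 FPKM in control HSCs and 2.38 FPKM in deletion HSCs. None of the 9 reached a mean of 1 FPKM, and Klra8 was listed at 0 in both. Ncr1, the NK receptor NKp46, was at 0.224 and 0.231 FPKM, and Klrb1c (NK1.1) at 0.311 and 0.301 FPKM. Nkg7 was thus present at 130 and 337 times the level of Ncr1, ratios that rest on 6 Ncr1 fragments in each library. The 9 T cell markers summed to 6.39 and 7.04 FPKM, with Cd3d, Cd3e, Cd3g and Cd8a listed at 0 in deletion HSCs. The label of the gene group is therefore one of gene function, and the defining NK markers were near 0 in both libraries.

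Neutrophil and monocyte progenitor markers were abundant and higher in deletion HSCs. The 7 of them found in the table summed to 1062 FPKM in control HSCs and 2751 FPKM in deletion HSCs, and 5 of the 7 (Mpo, Elane, Prtn3, Ctsg and Ms4a3) were counted as higher. Nkg7 stood at 10.4% of the FPKM of Mpo (myeloperoxidase) in control HSCs and at 10.8% in deletion HSCs. Against Elane (neutrophil elastase) it stood at 6.90% and 7.20%, and against Prtn3 (proteinase 3) at 13.9% and 13.7%. Against Ctsg it stood at 32.3% and 30.9%, and against Ms4a3 at 172% and 156%. These 5 genes were past 2-fold, as was Nkg7, which was picked for its rise. Near-equal ratios therefore follow in part from that choice. The other 2 were not past 2-fold, and Nkg7 went from 196% to 418% of Cebpe and from 109% to 151% of Fcnb. The part of these genes in the Nkg7 difference was not tested.

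**Figure D4:**
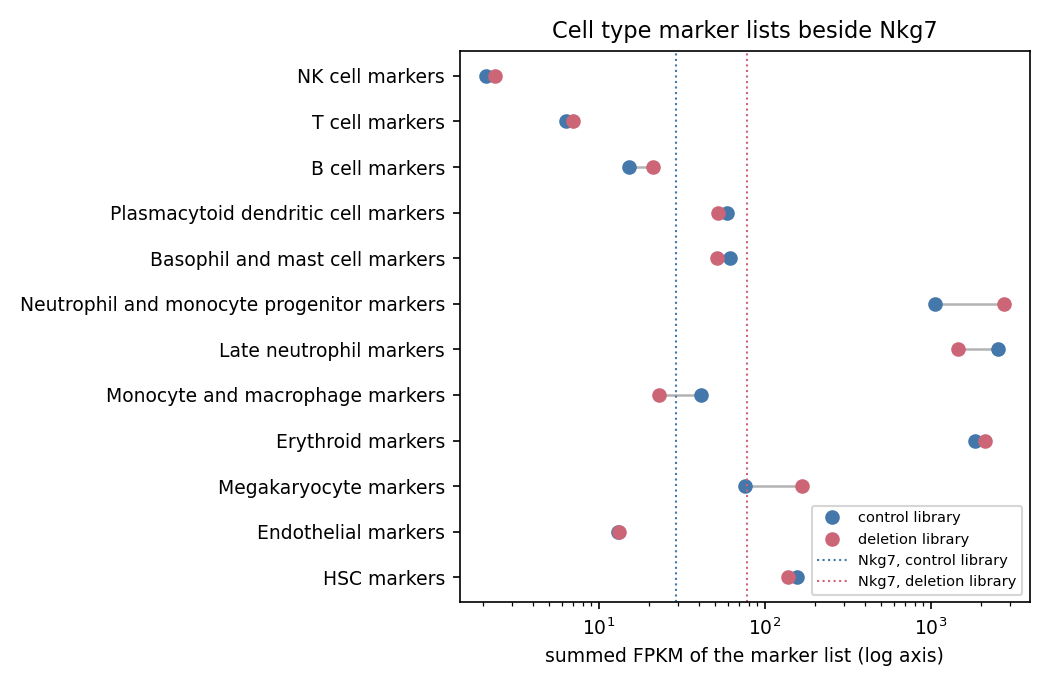
Summed FPKM of 12 cell type marker lists in control HSCs (blue) and the deletion library (red) on a log axis, with dotted lines at the level of Nkg7 in each library. NK cell markers sum to about 2 FPKM in both libraries, far left of Nkg7, and progenitor markers are higher and late neutrophil markers lower in deletion HSCs.

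The wider pathway was followed in 7 lists, of which each count is given for genes whose mean reached 1 FPKM. When the libraries were rescaled to equal totals, 2 adaptor, 1 T cell, 2 transcription factor, 1 chemokine and 1 cytokine signalling gene passed 2-fold lower, beyond those counted below. That rescaling multiplied control FPKM by 2.64 and deletion FPKM by 2.38. The pseudocount and the minimum stayed at 1, so genes of lower deposited FPKM reached the minimum and the pseudocount weighed less. In the list of cytotoxic granule content and exocytosis, 24 of 25 genes were found and 15 reached that mean. Of these 1 was higher (Cst7), 1 was lower (Ctsw) and 13 lay between, with a median log2 ratio of -0.099. Cst7 encodes cystatin F, an inhibitor of the cathepsins that activate granule proteases, and was at 13.7 FPKM in control HSCs and 31.6 FPKM in deletion HSCs. The log2 interval of Cst7 was 0.98 to 1.43, and 0.65 to 1.79 with fragments divided by 6. Ctsw, a cathepsin of NK and T cells, was at 3.04 and 0.819 FPKM, with no fragment number recovered. Srgn encodes serglycin, the proteoglycan that packs proteases into granules of many blood cells, and was at 124 and 210 FPKM. Rab27a, a GTPase of granule docking, was at 7.18 and 11.5 FPKM. Other genes of the release machinery were Unc13d at 41.9 and 37.0 FPKM, Stxbp2 at 36.9 and 34.8 FPKM and Lamp1, a granule membrane gene, at 86.9 and 94.1 FPKM. Ctsc, the cathepsin that activates granzymes and neutrophil proteases, was at 3.76 and 3.14 FPKM. The death ligand gene Fasl and the cytokine gene Ifng were at 0.475 and 0.355 FPKM in control HSCs, from 16 and 8 fragments, and were listed at 0 in deletion HSCs. With fragments divided by 6 their log2 intervals reached 1.62 and 3.94 and included equality.

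NK cell receptors were nearly silent. Of 27 genes, 26 had a mean under 1 FPKM, and Klrb1a, Klrc3, Klra8 and Klra9 were listed at 0 in both libraries. The exception was Fcgr3, an Fc receptor that NK cells share with myeloid cells and that has close paralogs, at 6.66 FPKM in control HSCs and 17.9 FPKM in deletion HSCs. Nkg7 stood at 4.38 and 4.36 times the level of Fcgr3. Il2rb, a receptor chain for interleukin 2 and interleukin 15, was at 1.13 and 0.596 FPKM.

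Several receptor adaptors were expressed. Of 18 adaptor and signalling genes, 11 reached a mean of 1 FPKM, none passed 2-fold, and the median log2 ratio was -0.073. Tyrobp (DAP12) was at 43.7 FPKM in control HSCs and 27.0 FPKM in deletion HSCs, and Fcer1g (the Fc receptor gamma chain) at 26.1 and 13.9 FPKM. Myeloid cells use both adaptors. Lat, a linker of T cells, mast cells and platelets, was at 5.16 and 8.56 FPKM. Cd247, the CD3 zeta chain, was at 0.680 and 0.111 FPKM, from 63 and 10 fragments. Its log2 interval with fragments divided by 6, -6.27 to -0.26, lay below equality. Zap70, the kinase that CD3 zeta recruits, was at 0.288 FPKM in control HSCs from 15 fragments and listed at 0 in deletion HSCs. With fragments divided by 6 the interval of Zap70 reached 1.80 and included equality.

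Among 26 T cell genes 5 reached a mean of 1 FPKM and none passed 2-fold, while 2 of them, Trbc2 and Ccr7, were called higher with a pseudocount of 0.1. The median log2 ratio of these 5 was 0.36, with 3 above 0 and 2 below. With no minimum the median of the list was -0.12. When the libraries were rescaled to equal totals, more genes of the list reached the minimum, and the median of that larger set was -0.086. Trbc1 and Trbc2, near-identical constant regions of the T cell receptor beta chain whose fragments may be split, were at 3.53 and 1.66 FPKM in control HSCs and 4.84 and 3.78 FPKM in deletion HSCs. Trac, the alpha chain constant region, was at 0.677 and 0.889 FPKM. Genes that went the other way included Thy1 at 1.19 and 0.357 FPKM and Cd4 at 1.04 and 0.515 FPKM. Of the 26 genes, 1 was listed at 0 in control HSCs and 7 in deletion HSCs, where low genes were more often listed at 0.

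Of 23 transcription factors of NK, T and innate lymphoid cells, 13 reached the minimum, 1 was higher, none was lower, and the median log2 ratio was -0.047. The higher gene was Gfi1, a repressor that acts in lymphoid and neutrophil progenitors, at 5.45 and 14.5 FPKM. Nkg7 stood at 5.35 times the level of Gfi1 in control HSCs and 5.38 times in deletion HSCs. Against the granule genes Cst7 and Srgn the ratio of Nkg7 rose more, from 2.13 to 2.47 and from 0.236 to 0.371. Gfi1 and Fcgr3 are genes past 2-fold, as is Nkg7, so near-equal ratios follow in part from that choice. Nfil3 and Id2, factors needed to form innate lymphoid cells, were at 5.57 and 4.34 FPKM in control HSCs and 2.37 and 1.92 FPKM in deletion HSCs. Neither was called lower, and both were with a pseudocount of 0.1.

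Chemokine genes other than Ccl5 did not pass 2-fold. Of 15 chemokine and receptor genes 8 reached the minimum, 7 of them with a log2 ratio below 0, and their median was -0.29. Ccl3 and Ccl4, chemokines made by NK cells and by myeloid cells, were at 13.4 and 11.1 FPKM in control HSCs and 9.46 and 10.2 FPKM in deletion HSCs. Ccr1, a CCL5 receptor, was at 2.48 and 1.28 FPKM. Of 19 cytokine signalling genes 15 reached the minimum and none passed 2-fold, with a median of -0.18. Stat5b and Jak1, which act downstream of interleukin 15 and of many other cytokines, were at 49.8 and 36.1 FPKM in control HSCs and 42.6 and 35.9 FPKM in deletion HSCs.

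**Figure D5:**
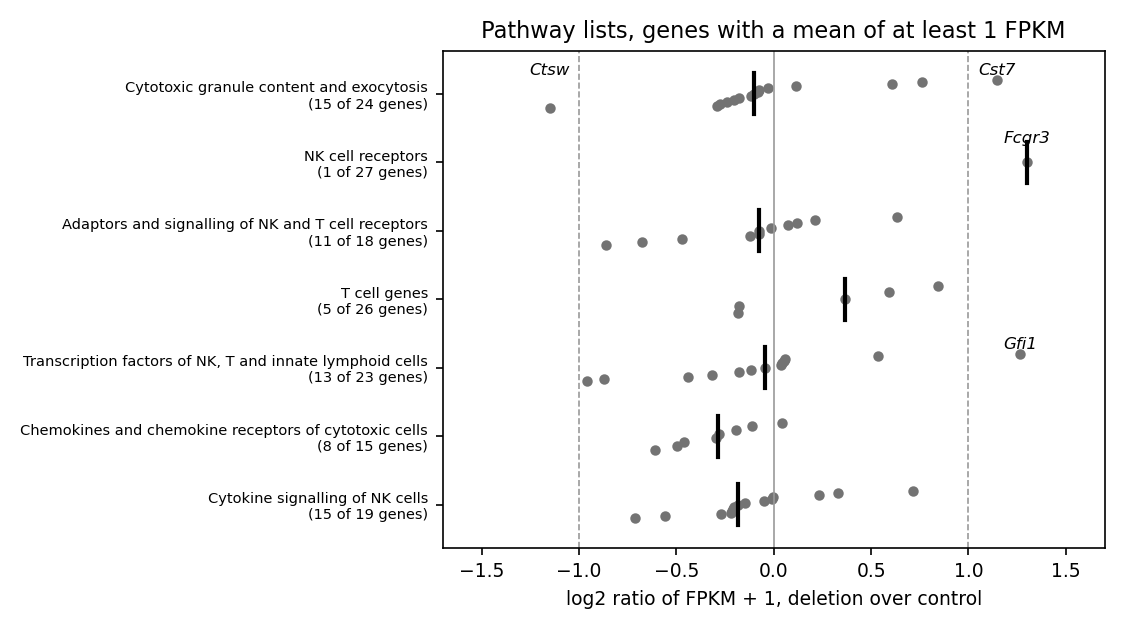
Log2 ratio of FPKM + 1 (deletion over control) for genes whose mean reached 1 FPKM in 7 pathway lists. Each point is a gene, the vertical bar is the list median, dashed lines mark 2-fold, and genes past it are named. Cst7, Fcgr3 and Gfi1 lie right of the upper line and Ctsw left of the lower one, and the NK receptor list holds a single gene of 27.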

How the data were processed

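RNA of sorted HSCs was sequenced as 150 bp paired-end reads, per the labels' protocols. FPKM values were computed by the authors and deposited for 54531 genes in 2 libraries. The submitters' processing notes list Bowtie 0.12.2 and build mm8 without saying what each was used for. Which counter and annotation they used is not given in the sources used here.

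Positions, gene types and exon lengths came from GENCODE M21 on GRCm38, and 54494 genes had a length. FPKM times length fell within 0.02 of a whole multiple of 1 step for 96.5% (control) and 96.1% (deletion) of detected genes, which gave depths and fragment numbers. Libraries were matched to genotypes by their descriptions.

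With 1 library per genotype no test was made. Log2 ratios compare deletion FPKM + 1 with control FPKM + 1, which understates differences of low genes. Intervals are exact Poisson (levels) and Clopper-Pearson (ratios) at 95%. The divisor 6 is the commonest fragment number of the deletion library and was chosen after seeing the data, as was the minimum of 200 fragments. Members and lists were chosen with earlier results of these data known. Named genes were all members, the 4 most abundant, highest and lowest of each list, genes past 2-fold, and the 6 nearest to Nkg7. Protein identity between granzymes was not used here, not every gene so selected is described, and some others were named after their values were seen. Alternatives were pseudocounts of 0.1 and 5, other minimum levels, 4 scalings, other thresholds and protein-coding genes only. Computation in Python 3.11.15 with SciPy 1.17.1 was tested on simulated data.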

Additional observations from a re-analysis of the deposited data

How the results depend on the processing

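The log2 ratio of Nkg7 stayed between 1.26 and 1.47 over pseudocounts of 0.1 and 5 FPKM and 4 scalings (common total, trimmed mean, median centring and no mitochondrial genes). Nkg7 was the 1 member counted as higher in every setting but the 4-fold threshold, where the number was 0. The number of members counted as lower was 0 with a pseudocount of 5 FPKM, a minimum mean of 5 FPKM, a minimum mean of 200 fragments or a 4-fold threshold, and 1 in the other settings. Ccl5 ranged from -1.50 to -0.53.

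The numbers of all genes counted as higher and lower (305 and 417) were 471 and 599 with a pseudocount of 0.1, 74 and 118 with 5, 428 and 683 with no minimum, and 83 and 97 at a minimum mean of 5 FPKM. They were 618 and 1182 when the libraries were rescaled to equal totals, 708 and 749 at 1.5-fold, 75 and 165 at 4-fold, 50 and 77 for protein-coding genes, and 37 and 41 at 200 fragments. Under equal totals the median of all genes was -0.16, against -0.011. Under equal totals 15021 genes reached the minimum, against 12325, so the 618 and 1182 are counted over a larger set. The parts of scaling, pseudocount and minimum in that shift were not tested. Of 154 list counts under alternatives 129 stayed within 1.5 times, and 25 did not. The main list counts were each 0 or 1, so they had little room to fall. Of 63 list medians under alternatives, 18 were labelled as moved. The NK receptor median was 1.30, from a single gene, and 0.003 with no minimum. The granule median was -0.099, and 0.018 at a minimum mean of 5 FPKM. No paired analysis was possible because each genotype has 1 library.

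For the 7 members under 1 FPKM, with at most 21 fragments in a library, the depth limits what can be seen.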

Other observations

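Outside the T cell markers, the T cell list held 1 gene above 10 FPKM in both libraries. Ubash3a, a phosphatase-family regulator of T cell receptor signalling, was at 12.9 FPKM in control HSCs and 11.3 FPKM in deletion HSCs, with no fragment number recovered. Lck, the T cell kinase and 1 of the 9 T cell markers, was at 1.38 and 1.5 FPKM, from 70 and 74 fragments. In the same libraries Cd3d stood at 0.0634 FPKM and Cd3g at 0.123 FPKM in control HSCs, and both were listed at 0 in deletion HSCs. These genes were picked out after their values were seen.

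B cell markers were somewhat above T and NK cell markers. The 8 genes summed to 15.2 FPKM in control HSCs and 21.1 FPKM in deletion HSCs, and they went both ways. Cd79a was at 3.48 and 6.93 FPKM and Cd79b at 5.99 and 6.14 FPKM, while Pax5 was at 0.754 and 0.530 FPKM, Ebf1 at 0.478 and 0.25 FPKM and Ms4a1 at 0.0837 and 0.0576 FPKM.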
